A study of Canis lupus familiaris with 222 samples.

Results

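A set of 100 genes whose RNA level rose with tumor grade was followed through canine mammary tumors (CMTs) and adjacent normal mammary tissue. The genes were chosen by their measured values. Over 44 benign tumors, 61 of grade 1, 21 of grade 2 and 23 of grade 3, FPKM (a transcript's level scaled to its length and to the sequencing depth) was correlated with grade order, with benign tumors set to 0 and malignant tumors to 1, 2 or 3. The 100 largest Spearman correlations were taken, out of 13434 gene identifiers whose FPKM averaged 1 or more in these tumors and 24580 identifiers in all. The coefficient ran from 0.475 and 0.457 for the first and second gene to 0.396 at rank 50 and 0.3700 at rank 100, and the next gene outside the set had 0.3696. The end of the list is therefore a cut through a continuous range.

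The series holds 222 RNA-seq libraries from female pet dogs after surgery, 158 from tumors and 64 from normal tissue next to them. Median age was 11 years for the dogs with benign tumors (range 5 to 16), 12.5 years for grade 1 (2 to 16), 12 years for grade 2 (7 to 16) and 14 years for grade 3 (10 to 19), in those with an age on record. Breeds were mixed, both intact and neutered dogs entered, and each tumor came from another dog. Normal tissue was available from 61 of the dogs whose tumors chose the genes. The 8 tumors of rare histologies, such as osteosarcoma, had no part in the choice, and neither had 1 benign tumor without clinical data.

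Histological grade of mammary carcinoma is read under the microscope from how far the cells still form tubules, how irregular their nuclei are and how often they divide, so it sums up lost differentiation and growth. In the dog, simple tumors are built from a single kind of epithelial cell, complex tumors hold both luminal epithelial and myoepithelial cells, and mixed tumors also hold cartilage or bone. Lymphatic invasion means tumor cells inside lymphatic vessels or regional lymph nodes. The basal and non-basal classes come from human breast cancer, where basal-like tumors lack hormone receptors and are mostly of high grade. The sources used here do not pair the Ensembl identifiers with gene names, so functions of the 100 genes and marker genes of the tissue and of other cell types were not analysed here, and only 4 genes are named by identifier. In bulk tissue, fewer cells of a type and less RNA per cell cannot be told apart.

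Mapped reads ran from 52007828 to 147634076 per library and mapping rates from 66.6% to 93.1%. Both were close to level over the grades, with median mapping rates of 91.5% to 91.6% and median mapped reads of 68103302 to 70085390. Of the 100 genes, 0 carried the same values as a further identifier. The 100 genes were of moderate abundance, with a median of 6.11 in mean FPKM (range 1.00 to 194) against 8.70 for all 13434 identifiers. In benign tumors 18 of them had a median under 1 FPKM, in grade 1 it was 19, and in grades 2 and 3 it was 0.

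The gene with the largest correlation, ENSCAFG00000003086, was expressed in every tumor. Its FPKM (lowest, median, highest) was 4.97, 14.6 and 34.0 in benign tumors. In grade 1 the values were 8.62, 15.2 and 28.9, in grade 2 they were 11.3, 19.1 and 31.8, and in grade 3 they were 16.2, 24.4 and 102.5. Medians in benign and grade 1 tumors lay close together and the lowest grade 3 tumor lay above both of them, although the grades overlapped. In the 64 normal tissues the values were 6.73, 15.5 and 41.5, a median near that of the low grades. The second gene, ENSCAFG00000001667, had FPKM values of 1.88, 5.92 and 19.2 in benign tumors, 3.48, 6.93 and 18.3 in grade 1, 3.16, 9.44 and 27.9 in grade 2, and 3.73, 11.7 and 28.2 in grade 3. Its median rose at each step, but the lowest grade 3 tumor lay under the benign median. Normal tissue was lower still, at 2.54, 4.66 and 11.2.

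A pair of genes in the set had their highest median in normal tissue. ENSCAFG00000028993 (rank 53) had FPKM values of 0, 0.261 and 4.34 in benign tumors, 0, 0.363 and 18.0 in grade 1, 0.0233, 1.39 and 30.1 in grade 2, and 0.0353, 1.67 and 64.2 in grade 3. Most tumors were low at every grade. A few of grades 1, 2 and 3 were far above the median of their grade, with the highest values in grades 2 and 3. In normal tissue the values were 0.0489, 5.17 and 44.1. ENSCAFG00000010148 (rank 56) had medians of 0.618 in benign tumors, 0.772 in grade 1, 1.01 in grade 2 and 2.31 in grade 3, with full ranges of 0.0967 to 10.0, 0.251 to 6.40, 0.371 to 3.94 and 0.520 to 3.75. Its highest single tumor was benign, and the ranges of the grades overlapped throughout. Normal tissue had a median of 2.50 (0.423 to 15.1), and of the tumor medians only that of grade 3 came near it.

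**Figure D1:**
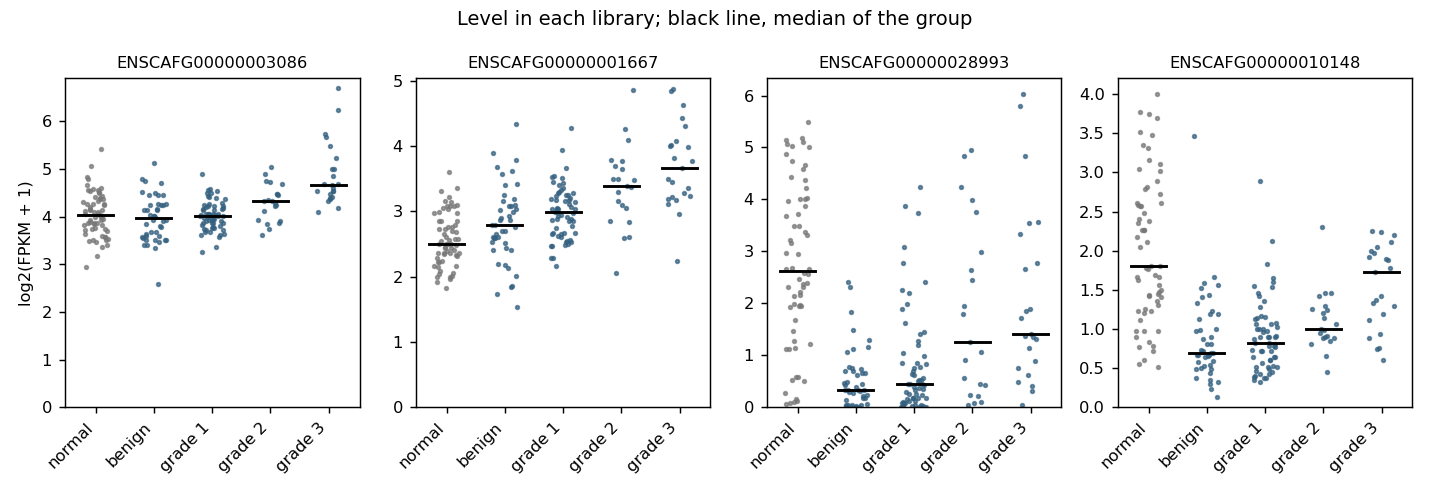
Level of the 4 named genes in each library, as log2(FPKM + 1) on the vertical axis, for 64 normal tissues (gray) and for 44 benign, 61 grade 1, 21 grade 2 and 23 grade 3 tumors (blue). Black lines are group medians: the first and second gene rise from benign to grade 3, whereas ENSCAFG00000028993 and ENSCAFG00000010148 have their highest median in normal tissue.

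The rise was not spread evenly over the grades. From benign to grade 1, the difference of the mean log2(FPKM + 1) had a median of 0.02 over the 100 genes (range -0.13 to 0.80), and 61 of them were positive. From grade 1 to grade 2 the median was 0.45 (0.10 to 1.01) with 100 positive, and from grade 2 to grade 3 it was 0.45 (-0.08 to 1.35) with 96 positive. Over all 13434 identifiers, the medians of the same steps were 0.01, 0.03 and -0.06, and 54.06%, 57.16% and 38.85% were positive. The first step was the largest for 5 genes, the second for 42 and the third for 53, and all 3 steps were positive for 57 genes, against 10.2% of all identifiers. These differences belong to the contrast that chose the genes, so they describe the shape of the rise and carry no test.

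**Figure D2:**
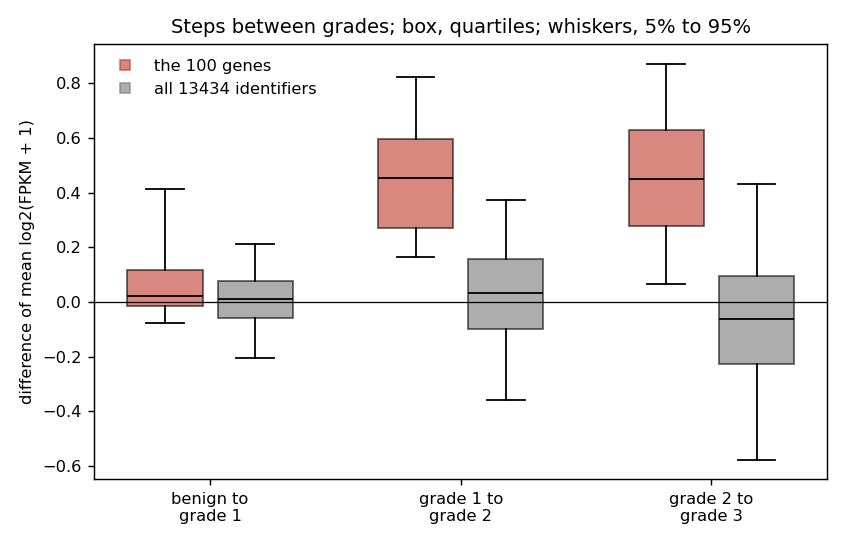
Difference of the mean log2(FPKM + 1) between neighboring grades (vertical axis) for the 100 genes (red) and all 13434 identifiers (gray). Boxes are quartiles with the median, whiskers run from 5% to 95%: medians of the 100 genes are 0.02, 0.45 and 0.45 for the 3 steps.

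On the linear scale, the ratio of the grade 3 median to the benign median ran from 1.25 to 8.83 with a middle value of 2.70. It was at least 1.5 for 87 genes and at least 2 for 68. The median FPKM increased at each of the 3 steps for 72 genes. For 0 of the 100 genes did the lowest grade 3 tumor lie above the highest benign tumor. The share over all identifiers was not computed, so this count is not given as a trait of the set. Within benign and grade 1 tumors alone, the median correlation with grade order was 0.06 and 74 genes were positive, against 59.3% of all identifiers. Within the malignant tumors it was 0.49, and 100 were positive, against 44.2% of all identifiers.

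As a single value per tumor, log2(FPKM + 1) was averaged over the 100 genes. This mean level (lowest, median, highest) was 1.64, 2.32 and 3.14 in benign tumors and 2.00, 2.47 and 3.31 in grade 1. It was 2.08, 3.16 and 3.62 in grade 2 and 2.33, 3.56 and 4.21 in grade 3. Of the grade 3 tumors, 17 of 23 lay above the highest benign tumor, against 11 of 21 in grade 2 and 2 of 61 in grade 1. Grade in these same tumors chose the genes, so this separation is a description and carries no test. The remaining 6 grade 3 tumors overlapped with benign ones, and 1 of the 23 fell under the grade 1 median. The mean level over all identifiers was nearly flat, with medians from 3.31 to 3.34, and its Pearson correlation with the level of the 100 genes over these tumors was 0.09, given as a description since both come from the same libraries.

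Sources differ on grade for 9 tumors, which the labels call benign and the clinical table of the study grade 1. Their mean level ran from 1.64 to 3.11 with a median of 2.61, and 7 of 9 lay above the benign median. They were kept as benign. Among the tumors left out, the rare histologies had mean levels of 2.52 to 3.91 with a median of 3.23, close to that of grade 2, and the benign complex adenoma without clinical data had 2.81.

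The correlation with grade had the same sign for all 100 genes in several subsets of the tumors. It was positive for 100 in the 77 simple tumors (median 0.52), against 45.6% of all identifiers. In the 49 complex tumors, which held 3 tumors of grade 3, it was positive for 100 (median 0.28), against 54.3%. In the 23 mixed tumors, which included 2 of grade 2 and 0 of grade 3, the median was -0.03. There 47 were positive, against 49.9% of all identifiers. With so few tumors above grade 1, these values cannot show whether the genes rise with grade in mixed tumors. By year of surgery the median was 0.48 for 39 tumors of 2016 and 0.40 for 93 of 2017, with 100 positive in both. The positive shares over all identifiers were 38.3% and 52.9%. For the 17 tumors of 2018, with 1 tumor each of grades 2 and 3, the median was 0.11. In these 77 genes were positive, against 39.3% of all identifiers. These subsets are parts of the tumors that chose the genes and describe where the rise lay.

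The 100 genes did not vary as a single unit. Within grades, the median Pearson correlation between pairs of them over the same tumors was 0.36, against 0.07 for pairs of all identifiers. A block of 49 genes, joined by average linkage down to a mean correlation of 0.5, had a median pairwise correlation of 0.74, the other 51 genes 0.22, and pairs across the division 0.31. These correlations share libraries, depth and normalization and are descriptions. The block was drawn from the same values that are described below, so its counts carry no test of the division.

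The block held the less abundant genes, with a median of 3.84 in mean FPKM against 8.86 for the other 51. Its grade 1 to 2 and grade 2 to 3 steps were larger, at 0.53 and 0.60 against 0.33 and 0.30, while its benign to grade 1 step was -0.01 against 0.09. The mean log2(FPKM + 1) of the block had medians of 1.72, 1.80, 2.58 and 3.23 from benign to grade 3 and 1.5 in normal tissue. For the other 51 genes the medians were 2.96, 3.13, 3.60 and 3.87, and 3.14 in normal tissue. All of the 10 largest correlations with grade belonged to the 51 genes outside the block. In grade 3 the mean level of these 51 genes had an SD of 0.36 over tumors, against 0.77 for the block. The block was formed from genes that vary together, so these SDs do not compare the spread of single genes.

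Whether the genes also differed between tumors and the normal tissue of the same dog was asked in 61 dogs, with limma on log2(FPKM + 1) and the dog as block. Normal tissue had no part in the choice of the genes, whereas the tumors did. Of the 100 genes, 66 were higher in tumors and 6 lower at an adjusted p under 0.05 over all identifiers, and 28 passed in neither direction. Over all 13434 identifiers 34.7% were called higher and 18.5% lower. The median difference was 0.29 for the 100 genes and 0.08 for all. The 66 higher genes ranged from 0.12 to 1.27 with a median of 0.41, and at a difference of at least 1, 2 genes were higher and 1 lower, near or under the 1.76% and 3.14% of all identifiers.

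ENSCAFG00000001667 was higher in tumors by 0.49 ± 0.08 (log2, SE, limma adjusted p = 6.64e-07), with the tumor above the own normal tissue in 49 of 61 dogs. ENSCAFG00000003086 had a difference of 0.12 ± 0.09 (limma adjusted p = 0.237) and 28 of 61 dogs with the higher value in the tumor. When FPKM was rescaled to the same sum in every library, the difference of that gene was 0.25 (limma adjusted p = 0.0119). The other named genes were picked as the largest called falls in this comparison, so their values are a description and not a test. ENSCAFG00000028993 fell by 1.52 ± 0.25 (SE) and was higher in the tumor in 14 of 61 dogs. ENSCAFG00000010148 fell by 0.98 ± 0.13 (SE) and was higher in the tumor in 9 of 61 dogs.

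All 6 lower genes had benign and grade 1 medians under the median of normal tissue. In grade 2 the median of 1 of the 6 lay above normal tissue and in grade 3 that of 4 of the 6. In the whole set, 66 genes had a benign median above the normal median, 79 a grade 1 median, 92 a grade 2 median and 98 a grade 3 median. The block supplied 44 of the 66 higher genes and 1 of the 6 lower ones, and the other 51 genes 22 and 5.

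Taken by grade of the tumor, the mean level over the 100 genes exceeded that of the own normal tissue in 9 of 16 dogs with benign tumors, 17 of 23 with grade 1, 7 of 12 with grade 2 and 8 of 10 with grade 3. The difference (lowest, median, highest) was -1.03, 0.03 and 0.73 for benign tumors, -0.78, 0.16 and 1.40 for grade 1, -0.89, 0.16 and 1.55 for grade 2, and -0.28, 0.74 and 2.13 for grade 3. Benign tumors lay evenly about their normal tissue, and the ranges of all grades included dogs with a lower tumor. The tumor values in this split are those that chose the genes, so it is given without a test.

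**Figure D3:**
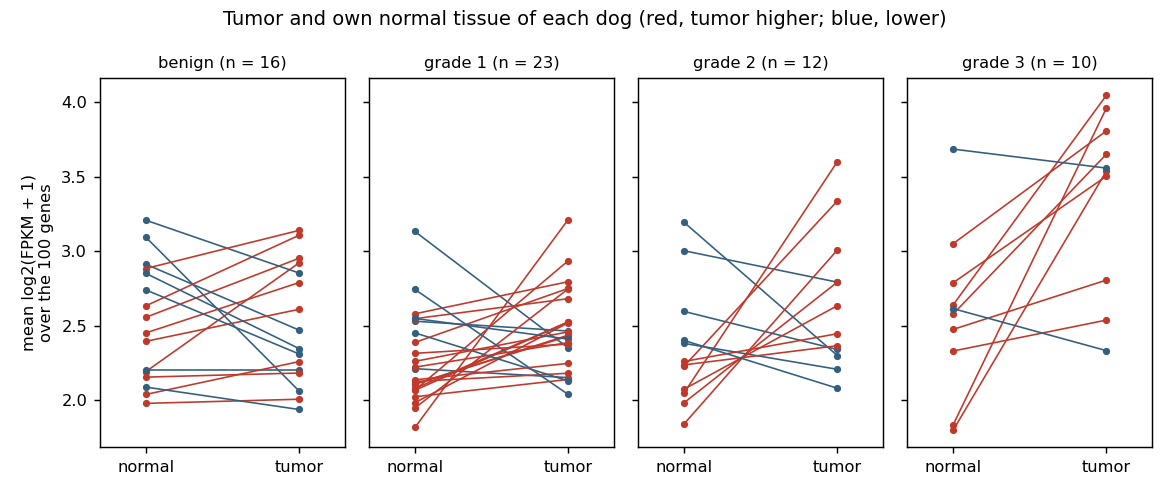
Mean log2(FPKM + 1) over the 100 genes (vertical axis) in normal tissue and tumor of each of 61 dogs, joined by a line and split by grade. Red lines mark the 41 dogs with the higher value in the tumor and blue lines the others: 8 of 10 dogs with a grade 3 tumor are red, against 9 of 16 with a benign tumor.

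The number of calls moved with the scaling. With FPKM rescaled to the same sum in every library the median of all identifiers moved from 0.08 to 0.20. The share of calls that were higher moved from 65.3% to 80.7%. Of the 100 genes 78 were then higher and 6 lower, against 51% and 12.2% of all identifiers. With the mapping rate as a covariate 47 were higher and 6 lower, against 24.4% and 16.6% of all identifiers. The median difference of the 100 genes was then 0.27, and 86 were positive, as without it. Over all identifiers 57.4% were positive, and 61.4% without the covariate.

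Normal tissue was then compared by the grade of the tumor next to it, in libraries that the choice of genes had not used. The mean level (lowest, median, highest) was 1.98, 2.51 and 3.21 beside 16 benign tumors, 1.82, 2.21 and 3.13 beside 23 of grade 1, 1.84, 2.25 and 3.20 beside 12 of grade 2, and 1.80, 2.60 and 3.69 beside 10 of grade 3. The groups overlapped almost fully and their medians followed no order. With limma on the slope per grade, 0 of the 100 genes and 0% of all identifiers passed an adjusted p under 0.05. At an unadjusted p under 0.05 there were 2 of the 100 genes, against 4.27% of all. The median slope was 0.01 per grade (range -0.14 to 0.37), with 57 genes positive, against 48.8% of all identifiers.

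Basal and non-basal CMTs were compared within grades. The class was assigned by the authors from expression in these libraries, by clustering with human tumors on a panel of subtype genes, so the counts are a description of how the 100 genes follow it. Whether genes of that panel are among the 100 was not analysed here. Basal tumors were 3 of 44 benign, 4 of 61 grade 1, 7 of 21 grade 2 and 17 of 23 grade 3 tumors. The mean level over the 100 genes had medians of 3.11 in basal against 2.27 in non-basal benign tumors, 3.08 against 2.46 in grade 1, 3.50 against 2.71 in grade 2 and 3.65 against 2.62 in grade 3. In grade 2 the basal tumors spanned 3.25 to 3.62 and the non-basal 2.08 to 3.26, so the ranges barely touched. In grade 3 the basal tumors spanned 3.09 to 4.21 and the non-basal 2.33 to 3.24.

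With limma and grade as a factor, 79 of the 100 genes were higher in basal tumors and 0 lower, where 6.5% of all identifiers were higher and 11.7% lower. The median difference was 0.65 for the 100 genes and -0.05 for all, and 99 of 100 were positive, against 42.6% of all. The called genes differed by 0.25 to 1.83, and 34 of them by at least 1, against 0.863% of all identifiers. All 49 block genes and 30 of the other 51 were among the called, with median differences of 1.08 and 0.37. With FPKM divided by the upper quartile of the library, the calls over all identifiers were 1388 higher and 1320 lower in place of 873 and 1576, and 84 of the 100 genes were higher.

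For named genes the adjusted p is also a description, since expression made the class and these tumors chose the genes. ENSCAFG00000001667 was higher in basal tumors by 0.66 ± 0.13 (limma adjusted p = 2.08e-05). In grade 3 its FPKM (lowest, median, highest) was 7.65, 14.9 and 28.2 in basal and 3.73, 8.08 and 9.28 in non-basal tumors, which overlapped at the low end of the basal range. ENSCAFG00000003086 was higher by 0.37 ± 0.11 (limma adjusted p = 0.00755), with 17.2, 28.0 and 102.5 in basal and 16.2, 19.9 and 24.4 in non-basal grade 3 tumors. The genes with their highest median in normal tissue had differences of 0.41 ± 0.29 for ENSCAFG00000028993 (limma adjusted p = 0.364) and 0.16 ± 0.13 for ENSCAFG00000010148 (limma adjusted p = 0.415).

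In the 23 grade 3 tumors alone, 41 of the 100 genes were higher in the basal class, where 1.31% of all identifiers were higher. All 41 belonged to the block of 49, and 0 of the other 51 genes passed. For both ENSCAFG00000003086 (0.68, limma adjusted p = 0.274) and ENSCAFG00000001667 (0.90, limma adjusted p = 0.0636) the difference was larger there than over all grades. Neither adjusted p was under 0.05.

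The correlation with grade within each class was smaller in non-basal tumors. Over the non-basal tumors its median was 0.14 (0.04 to 0.41) with 100 genes positive, against 56% of all identifiers. Over 31 basal tumors it was 0.41 (-0.01 to 0.78) with 99 positive, against 54.7%. The block had median levels of 1.65, 1.78, 2.08 and 1.88 from benign to grade 3 in non-basal tumors, and 2.84, 2.81, 3.08 and 3.31 in basal tumors. For the other 51 genes the medians were 2.94, 3.13, 3.29 and 3.42 in non-basal tumors and 3.33, 3.33, 3.86 and 4.00 in basal tumors. Thus in non-basal tumors the median of the genes outside the block rose at each step, whereas the block peaked in grade 2. In basal tumors the median of those 51 genes was 3.33 in both benign and grade 1 tumors. The share of basal tumors rose with grade together with the level, and its part in the steps between grades was not tested.

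**Figure D4:**
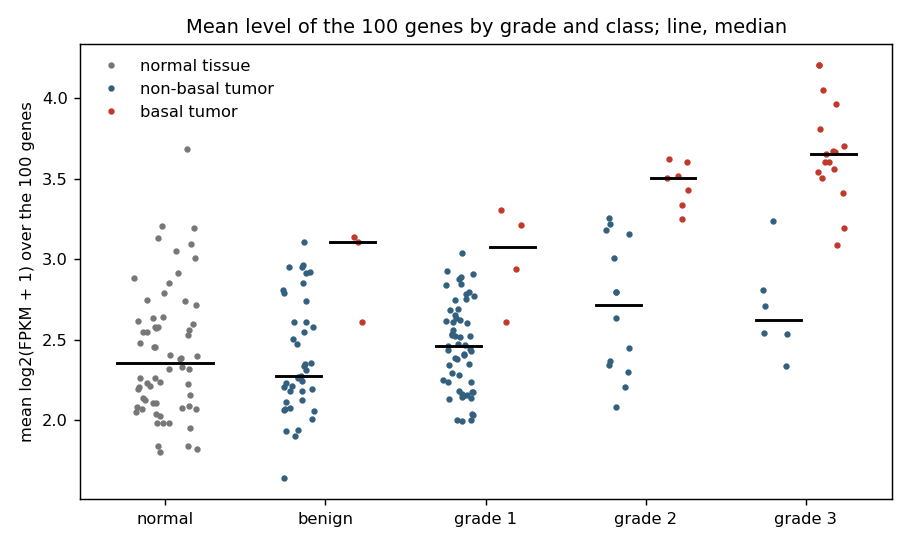
Mean log2(FPKM + 1) over the 100 genes (vertical axis) in 64 normal tissues (gray) and in non-basal (blue) and 31 basal (red) tumors by grade, with medians as black lines. From benign to grade 3, non-basal medians are 2.27, 2.46, 2.71 and 2.62, and basal medians are 3.11, 3.08, 3.50 and 3.65.

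Simple and complex tumors were compared within grades, since 20 of 23 grade 3 tumors were simple. The mean level had medians of 2.29 in simple and 2.30 in complex benign tumors, 2.49 and 2.49 in grade 1, 3.18 and 2.99 in grade 2, and 3.58 and 3.19 in grade 3, where 3 tumors were complex. The ranges overlapped at each grade. With limma and grade as a factor over 126 tumors, 0 of the 100 genes were called in either direction, against 0.149% of all identifiers higher and 2.46% lower in simple tumors. At an unadjusted p under 0.05 there were 3 of the 100 genes, against 12.2% of all. The median difference was 0.04 (range -0.21 to 0.31), and -0.05 for all identifiers. Of the 100 genes 67 were positive, against 33.9% of all identifiers.

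Mixed tumors had mean levels with medians of 2.53 in 10 benign and 2.47 in 11 grade 1 tumors, near those of the other types. The 2 mixed tumors of grade 2 had 2.08 and 2.79, both under the grade 2 median of 3.16.

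Lymphatic invasion was recorded in 13 of 23 grade 3 tumors, 1 of 21 grade 2 tumors and 0 of the others, and was therefore compared within grade 3. The mean level (lowest, median, highest) was 2.33, 3.65 and 4.21 with invasion and 2.54, 3.33 and 4.21 without, so the ranges overlapped almost fully. Limma called 0 of the 100 genes and 0% of all identifiers, and at an unadjusted p under 0.05 there was 1 of the 100, against 3.33% of all. The median difference was 0.16 with 82 genes positive, against -0.01 and 48.7% for all identifiers. With FPKM rescaled to the same sum, 59 were positive against 31% of all identifiers, with a median of 0.04 against -0.13. The 3 complex tumors of grade 3 were all without invasion, and in the 20 simple ones 66 genes were positive, against 52.7% of all identifiers, with a median of 0.13. Basal tumors made up 10 of the 13 with and 7 of the 10 without invasion.

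**Figure D5:**
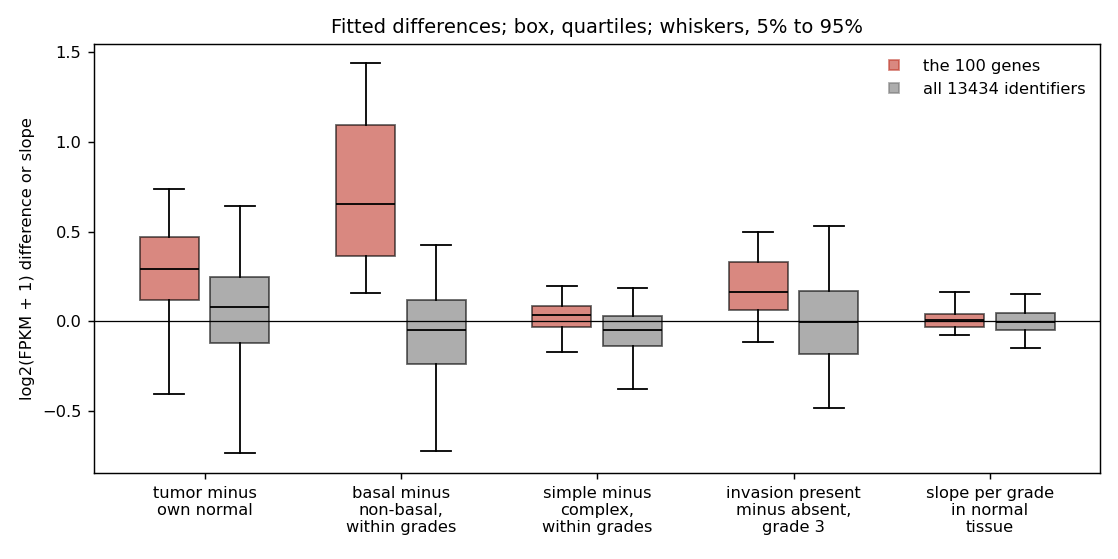
Fitted differences in log2(FPKM + 1), or the slope per grade for normal tissue (vertical axis), for the 100 genes (red) and all 13434 identifiers (gray). Boxes are quartiles with the median, whiskers run from 5% to 95%: the medians of the 100 genes are 0.29 for tumor minus normal, 0.65 for basal minus non-basal, 0.04 for simple minus complex, 0.16 for invasion and 0.01 for the slope in normal tissue.

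Survival was examined in 133 dogs with follow-up, with 35 deaths. Of the dogs with benign tumors 5 of 38 died, of those with grade 1 tumors 14 of 56, with grade 2 tumors 6 of 20 and with grade 3 tumors 10 of 19. These counts are from the clinical table of the study, and the sample labels give fewer deaths, 24 in all, with 1 in benign tumors, 9 in grade 1, 5 in grade 2 and 9 in grade 3. In Cox regression with grade as strata, 0 of the 100 genes and 0% of 13425 identifiers passed an adjusted p under 0.05. At an unadjusted p under 0.05 there was 1 of the 100 genes, against 3.52% of all. The median log hazard per unit of log2(FPKM + 1) was -0.05, with 40 genes positive, against -0.08 and 38.2% for all identifiers. With the follow-up of the labels in its place, 0 of the 100 genes and 1 of 13433 identifiers passed. The median was -0.07 and 44 were positive, against -0.17 and 34.8% for all identifiers. An unadjusted Cox p under 0.05 was then found for 2 of the 100 genes and 1909 of all identifiers.

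Without grade in the model, 99 of the 100 genes had a positive log hazard, against 37.2% of all identifiers. The median was 0.37, against -0.10 for all. At an unadjusted p under 0.05 there were 30 of the 100, against 9.59% of all, and 0 of the 100 and 0% of all passed the adjusted threshold. Since grade chose the genes and deaths were more frequent in grade 3, this value is not independent of the choice. For ENSCAFG00000003086 the hazard ratio was 1.57 (95% interval 0.735 to 3.36) within grades and 2.26 (1.29 to 3.95, Cox adjusted p = 0.272) without grade. For ENSCAFG00000001667 it was 0.98 (0.487 to 1.97) within grades and 1.69 (0.926 to 3.07, Cox adjusted p = 0.598) without grade. With 35 deaths these intervals remained wide.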

How the data were processed

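RNA-seq of poly(A) RNA was performed on tumors and adjacent normal mammary tissue. Per the labels, the authors used TopHat2 (2.0.9) and Cufflinks (2.1.1) with CanFam3.1, and the deposited table holds FPKM, 1 column per library. It holds no read counts. FPKM depends on all other genes of a library, so 2 rescalings were tried. Tissue, grade, type and invasion came from the sample labels. Class, follow-up and mapped reads came from the study's supplementary tables. The members and lists were chosen with earlier results of these data known.

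Values were analysed as log2(FPKM + 1) for identifiers whose FPKM averaged 1 or more in the tumors that chose the genes, with limma 3.58.1 (intensity trend, Benjamini-Hochberg adjustment, two-sided) and survival 3.8-3 in R 4.3.3, and with Python 3.11.15, pandas 2.3.3 and scipy 1.17.1. Each test was tested on simulated data. The own normal tissue paired with the tumor by dog, and deviations of tumor and normal correlated by more than 0.1 in 44 of 61 dogs. With tissue of another dog this held in 23 of 61 pairs, and the mean correlation was 0.05 against 0.20. The rule for named genes was the 2 largest correlations with grade and the 2 largest falls among called genes against own normal tissue. The 43286 RefSeq genes at hand carried an Ensembl identifier for 0 genes, so the planned lists of marker genes could not be used. Each library is 1 dog's tissue. Alternatives were another pseudocount, filter, scaling, source of grade or follow-up, covariates and subsets.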

Additional observations from a re-analysis of the deposited data

Results flagged for a closer look

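The checks for a sample far from the rest of its group were run on 36 groups of 4 to 10 libraries, of which 4 stood out, and chance gives about 1 in 20. In FPKM, ENSCAFG00000001667 had a highest value of 27.93 among 7 basal grade 2 tumors, with the next at 12.86, and the same value stood apart among 7 grade 2 tumors operated on in 2016, where the next was 10.28. ENSCAFG00000003086 reached 28.62 among 7 grade 2 tumors of 2016, with the next at 19.26, and 102.5 among 5 grade 3 tumors of 2016, with the next at 43.58. Among the tumors that the comparisons left out, a fibrosarcoma of grade 1 had a mean level over the 100 genes of 3.907, above the highest normal tissue at 3.687, and 81 of the 100 genes lay above their grade 3 median in it.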

How the results depend on the processing

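The choice of genes depended on the tumors and the filter. Of the 100 genes, 55 were chosen again when the mean FPKM had to reach 5, 29 in the tumors of 2016, 42 in those of 2017 and 59 in simple tumors. With a log2 difference of at least 1 required, 2 genes were higher and 1 lower in tumors than in normal tissue (1.76% and 3.14% of all identifiers), and 34 were higher in basal tumors (0.863%). At the adjusted p alone, 41 were higher in basal tumors of grade 3 (1.31%). Without the replicate block of dogs, 60 genes were higher and 6 lower than in normal tissue (31.3% and 16.3%). The median slope in normal tissue turned to -0.000492 with a pseudocount of 0.1 and to -0.0115 with the mapping rate as a covariate. The median difference of simple and complex tumors turned to -0.00657 in grade 1 alone. The median log hazard turned to 0.368 without grade and 0.0622 in dogs followed for at least 30 days. The causes were not tested. Of 100 other counts within 1.5 times of the reported one, 74 were 0 in both fits and say nothing about stability, and 26 were above 0. Surgery year could not be fitted beside the dog in the paired comparison. FPKM keeps no counts, so the depth behind a low value is unknown.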
